A study of Mus musculus with 22 samples.

Results

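The genes described here are the nuclear-encoded subunits of mouse oxidative phosphorylation, taken by symbol: Nduf without the Ndufaf assembly factors, Uqcr, Atp5, Cox4 to Cox8, the 4 Sdh genes and Cyc1, without pseudogenes. Together 86 such genes had a row: 72 of 9326 genes in the megakaryocyte tables and 74 of 23930 rows in the platelet table, with 60 in both. A further 12 were listed for megakaryocytes only and 14 for platelets only. The 22 samples fall into 7 groups. In the knockout, Pf4Cre-Srsf3fl/fl, the recombinase Cre is expressed from the platelet factor 4 promoter. It is meant to remove the floxed splicing factor gene Srsf3 in megakaryocytes. Megakaryocytes, the marrow cells that release platelets, were sorted from adult C57BL/6 mice on CD41 and on DNA content into 16N-plus cells, which hold 16N or more, and 8N cells. Each gate had 3 knockout and 3 Cre-negative control samples, with cells pooled within a sample. Washed platelets came from 4 knockout, 3 Cre-negative control and 3 wild type samples of adult mice, whose strain labels run from C57BL/7 to C57BL/16, 1 per sample. Cre was present in the knockouts alone, so loss of Srsf3 and presence of the transgene cannot be told apart. It is not given in the labels whether controls carry the floxed allele, or whether samples of 1 group are separate animals, so the p-values measure the spread between these samples.

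Oxidative phosphorylation turns the electrons of NADH and succinate into ATP at the inner mitochondrial membrane. Complexes I (NADH dehydrogenase, Nduf genes) and II (succinate dehydrogenase, Sdh genes) take up electrons, complexes III (Uqcr genes and Cyc1) and IV (cytochrome c oxidase, Cox genes) pass them to oxygen, and complex V (ATP synthase, Atp5 genes) uses the proton gradient. Complex II is encoded wholly in the nucleus, while the other complexes also hold subunits made from mitochondrial DNA. Platelets have no nucleus and keep mitochondria and RNA from the megakaryocyte. Genes were grouped by name: Ndufa4 stands with complex I below although it is now placed with complex IV, and Atp5sl stands with complex V although it is regarded as an assembly factor of complex I.

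The promoter windows of the 3 subunit genes with the largest platelet log2 fold changes and of the 3 that were lower in knockout platelets are shown, since these are the extremes of the pattern that most subunit genes shared. They are RefSeq windows on GRCm38.p6, all on the minus strand and written 5′ to 3′, with 250 bases before the start and 50 after it. The windows are chr19:4012706-4013005 for Ndufv1, chr2:36049289-36049588 for Ndufa8, chr3:51408906-51409205 for Ndufc1, chr13:114388045-114388344 for Ndufs4, chr6:11907401-11907700 for Ndufa4 and chrX:37191189-37191488 for Ndufa1. Capitals mark matches, on either strand, to 4 motifs of factors known from promoters of respiratory genes: NRF1 (GCGCA, any base, then GCGC), GABP/ETS (CCGGAAG), YY1 (AANATGGCG) and SP1 (GGGGCGGGG).
Ndufv1: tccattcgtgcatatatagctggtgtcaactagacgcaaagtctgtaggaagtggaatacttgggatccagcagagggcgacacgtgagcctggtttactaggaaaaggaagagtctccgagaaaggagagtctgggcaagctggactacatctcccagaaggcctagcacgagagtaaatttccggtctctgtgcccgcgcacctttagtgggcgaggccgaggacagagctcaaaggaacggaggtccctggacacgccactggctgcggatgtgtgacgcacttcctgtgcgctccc
Ndufa8: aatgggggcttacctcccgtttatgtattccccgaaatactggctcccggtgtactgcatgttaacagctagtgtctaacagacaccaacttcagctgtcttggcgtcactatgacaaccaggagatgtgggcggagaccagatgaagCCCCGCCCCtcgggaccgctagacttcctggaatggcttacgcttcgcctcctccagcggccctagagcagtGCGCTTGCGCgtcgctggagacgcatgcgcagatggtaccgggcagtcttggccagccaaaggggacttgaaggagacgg
Ndufc1: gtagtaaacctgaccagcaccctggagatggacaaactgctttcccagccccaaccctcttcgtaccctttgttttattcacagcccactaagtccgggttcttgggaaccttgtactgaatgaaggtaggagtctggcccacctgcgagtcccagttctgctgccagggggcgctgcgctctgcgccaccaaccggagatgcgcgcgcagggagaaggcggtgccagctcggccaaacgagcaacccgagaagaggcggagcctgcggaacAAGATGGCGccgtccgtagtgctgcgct
Ndufs4: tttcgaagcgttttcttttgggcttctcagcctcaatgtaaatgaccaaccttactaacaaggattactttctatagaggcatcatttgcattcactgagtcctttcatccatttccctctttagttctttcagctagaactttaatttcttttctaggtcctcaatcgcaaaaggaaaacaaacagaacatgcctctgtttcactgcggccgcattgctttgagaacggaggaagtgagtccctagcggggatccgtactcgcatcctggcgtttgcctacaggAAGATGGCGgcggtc
Ndufa4: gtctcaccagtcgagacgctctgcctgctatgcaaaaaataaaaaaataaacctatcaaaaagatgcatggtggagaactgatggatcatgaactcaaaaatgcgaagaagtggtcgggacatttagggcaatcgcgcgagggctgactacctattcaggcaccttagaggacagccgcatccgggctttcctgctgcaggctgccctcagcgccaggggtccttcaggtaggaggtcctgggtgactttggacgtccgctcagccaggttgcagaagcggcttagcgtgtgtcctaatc
Ndufa1: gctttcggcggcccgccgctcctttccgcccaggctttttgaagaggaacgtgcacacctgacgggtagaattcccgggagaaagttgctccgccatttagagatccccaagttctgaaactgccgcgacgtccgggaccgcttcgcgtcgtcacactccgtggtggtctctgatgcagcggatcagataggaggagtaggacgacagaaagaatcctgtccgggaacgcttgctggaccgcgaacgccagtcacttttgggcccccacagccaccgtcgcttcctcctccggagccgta
Of the higher genes, the Ndufa8 window held 1 NRF1 and 1 SP1 match, the Ndufc1 window 1 YY1 match, and the Ndufv1 window none. Of the lower genes, the Ndufs4 window held 1 YY1 match, and those of Ndufa4 and Ndufa1 none. No printed match overlaps another. Windows were found for 66 of the 86 genes, and 76 windows of 71 symbols meeting the rule were searched. NRF1 matches were in 23.7% of them, against 11.0% of windows of all genes in the megakaryocyte tables and 4.60% of all 32851 windows. GABP/ETS matches were in 22.4%, against 19.1% and 8.86%. YY1 matches were in 13.2%, against 5.65% and 2.38%. SP1 matches were in 14.5%, against 22.1% and 11.4%. The median platelet log2 fold change was 2.39 for 13 subunit genes with an NRF1 match and 1.80 for 42 without. For GABP/ETS it was 1.38 for 14 with a match and 2.24 for 41 without, a description of these genes and not of a factor.

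The log2 fold changes per gene below are from the authors' own comparisons. The SEs for megakaryocytes, the differences between gates with their p-values, and the readjusted p-values were derived from those comparisons here. Values per library were not analysed here, and the depth behind a value is unknown. No table says which group is on top of its fold change. Fold changes are written as knockout over control, and as 16N-plus over 8N cells. That orientation was inferred, without the subunit genes, from the platelet genes and mitosis genes of the ploidy tables and, for platelets, from the relation with the megakaryocyte tables. The ploidy sign fixes the genotype sign in megakaryocytes. The difference of genotype effects between gates equals that of ploidy effects between genotypes, to within 1.01e-14 in every gene. The floxed gene did not settle it. Srsf3, in the authors' deposited table, was at 0.43 (SE 0.27, edgeR adjusted p = 0.556) in 16N-plus cells and at 0.33 (SE 0.21, edgeR adjusted p = 0.796) in 8N cells. Over both gates together Srsf3 was at 0.38 (SE 0.17, edgeR adjusted p = 0.276), above 0 and not called. No platelet value for it was analysed here. With the other orientation every log2 fold change and every difference between gates below turns its sign. Megakaryocyte and platelet values would turn together, so correlations between them would keep theirs. Of the markers of megakaryocytes and platelets, 15 had a megakaryocyte row, at mean log2 CPM of 7.33 for Gp6 to 12.2 for Itga2b. The 72 subunit genes had means of 4.54 for Ndufs5 to 10.6 for Atp5b, on a scale not divided by transcript length. An SE for megakaryocytes is the size of the log2 fold change over the root of the F score. It is printed at a mean of at least 5.5, where 50 of the 72 genes lie, and at F above 0.5; values without one are below either limit. Fewer cells of a type and less RNA per cell cannot be told apart in these bulk samples.

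In knockout 16N-plus megakaryocytes 2 subunit genes were called, both of ATP synthase and in opposite directions. Atp5h, a subunit of the peripheral stalk, rose by a log2 fold change of 0.90 (SE 0.27, edgeR adjusted p = 0.0327), by the authors' deposited table. Atp5e, the epsilon subunit of the central stalk, was lower at -0.99 (SE 0.29, edgeR adjusted p = 0.0258), by the authors' deposited table. A gene is called where the authors' adjusted p is under 0.05. These 2 of 72 subunit genes stand beside 3.51% of all 9326 genes called in that comparison, 0.386% higher and 3.12% lower, a share close to that of all genes. The median of the subunit genes was 0.12, against 0.07 over all genes; it was 0.04 after centring on all genes and 0.31 for subunit genes at or above the median expression of all genes. Of the subunit genes, 45 of 72 were above 0, against 60.9% of all genes. Without the adjustment 5 passed p under 0.05, 3 higher and 2 lower, against 5.54% and 6.5% of all genes.

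By complex, edgeR called no subunit outside complex V in this gate, and differences between complexes were not tested. All 7 core subunits of complex I, which hold its flavin and iron-sulphur centres, were above 0, with a median of 0.42. The flavin-binding Ndufv1 was at 0.50 (SE 0.27) and the iron-sulphur subunits Ndufs1 at 0.44 (SE 0.26), Ndufs8 at 0.36 (SE 0.22) and Ndufv2 at 0.29 (SE 0.33), as the authors' deposited table lists them. Ndufs3 and Ndufs7, in the authors' deposited table, were at 0.44 and 0.09. No single value of these 7 passed the test. The 25 accessory subunits of complex I, which surround that core, had a median of 0.08. In complex II the flavoprotein gene Sdha was at -0.05, the iron-sulphur protein gene Sdhb at 0.49 (SE 0.28), and the membrane anchor genes Sdhc and Sdhd at 0.59 (SE 0.27) and 0.44 (SE 0.35), as the authors' deposited table lists them. Medians were 0.47 for these 4, 0.13 for 9 genes of complex III, -0.05 for 11 of complex IV and 0.02 for 16 of complex V. In complex IV the general isoforms lay on both sides of 0, with Cox7a2 at 0.19 (SE 0.16), Cox4i1 at -0.08, Cox6a1 at 0.25, Cox6b1 at 0.51 (SE 0.28) and Cox8a at -0.37 (SE 0.30) by the authors' deposited table. Cox7a2l, which stands with complex IV by name and is not counted as an isoform here, was at 0.43 (SE 0.31) by the authors' deposited table.

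In knockout 8N megakaryocytes most subunit genes lay slightly above control, and none was called. Of 72 genes 62 were above 0, against 51.7% of all genes, and the median was 0.26, against 0.01. The authors' edgeR test called 0, where 1.44% of all genes were called, 0.3% higher and 1.14% lower. At an unadjusted p under 0.05 it had 20 higher and 0 lower, where 3.21% of all genes were higher and 4.94% lower. By complex, again without a test of the difference, the median was 0.43 in complex IV, 0.35 in complex III, 0.34 in complex V and 0.24 in accessory complex I, against 0.07 in core complex I and -0.02 in complex II. Core subunits lay, in the authors' deposited table, between Ndufv1 at -0.09 and Ndufs1 at 0.21 (SE 0.21). Among isoforms Cox7a2 was at 0.65 (SE 0.22, edgeR adjusted p = 0.126), Cox6b1 at 0.50 (SE 0.24) and Cox4i1 at 0.24 (SE 0.24), by the authors' deposited table. Cox6a1 was at 0.18, Cox8a at 0.16 and Cox7a2l, grouped by name, at -0.07, by the authors' deposited table. Uqcrh, the hinge protein of complex III, was at 0.78 (SE 0.27, edgeR adjusted p = 0.145) and Atp5h at 0.68 (SE 0.20, edgeR adjusted p = 0.0639) by the authors' deposited table; Uqcrh was chosen after its value was seen. With genes under a mean log2 CPM of 5.5 left out, an alternative chosen after seeing the data, Atp5h passed in 8N cells too (the authors' edgeR p readjusted over 6403 genes = 0.0470).

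Other transcripts moved in the same 8N libraries. Of 77 cytosolic ribosomal protein genes 21 were called higher and 0 lower, with a median of 0.54, and Rps27, in the authors' deposited table, was at 1.17 (SE 0.27). Leukocyte markers moved as well: 4 of 15 neutrophil and granulocyte markers were called lower (median -0.37), as were 2 of 5 B cell and plasma cell markers (median -0.42), while 1 of 6 T and NK cell markers was higher. Of 17 monocyte and macrophage markers 0 were called, and 16 were below 0 (median -0.27). At an unadjusted p under 0.05, 6 of these were lower and 0 higher, against 4.94% and 3.21% of all genes. Igkc, an immunoglobulin light chain gene, was at -1.66 (SE 0.23) by the authors' deposited table. Among 16N-plus cells, 2 of 15 neutrophil and granulocyte markers were called higher by edgeR and 0 of 77 ribosomal protein genes, 7 of these being higher at an unadjusted p under 0.05. Megakaryocyte and platelet markers were called lower for 9 of 15 genes in 16N-plus cells (median -0.97) and 5 of 15 in 8N cells (median -0.46). The part of these cells and transcripts in the subunit values was not tested.

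**Figure D1:**
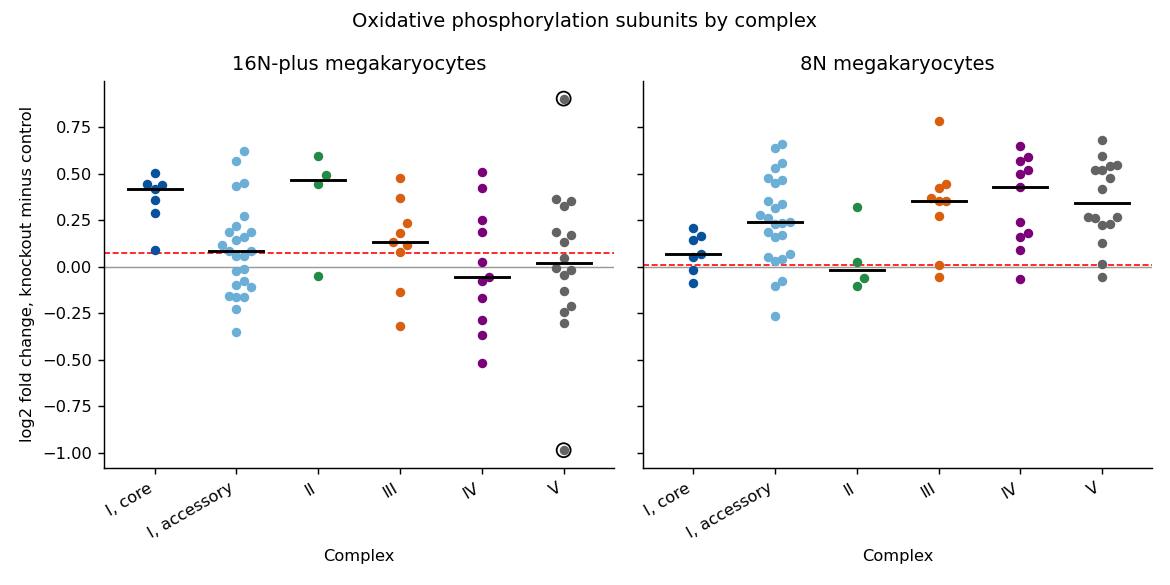
Each point is 1 subunit gene, grouped by complex on the x axis; the y axis is the deposited log2 fold change, knockout over control, in 16N-plus cells (left) and 8N cells (right), with black bars at medians, circles round called genes and a dashed line at the median of all genes. Core complex I and complex II lie highest on the left, with medians of 0.42 and 0.47, and lowest on the right, with medians of 0.07 and -0.02.

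Over both gates together 2 of 72 subunit genes were called in the knockout, both higher, beside 4.19% of all genes called, 0.622% higher and 3.57% lower. Atp5h was at 0.79 (SE 0.17, edgeR adjusted p = 0.000376) and Ndufb9, an accessory subunit of complex I, at 0.64 (SE 0.19, edgeR adjusted p = 0.0239), by the authors' deposited table. This table equals the mean of both gate tables, and Atp5h and Ndufb9 were above 0 in each gate. The median was 0.19, against 0.05 over all genes, with 63 of 72 above 0, against 60.1%. At an unadjusted p under 0.05, 10 were higher and 0 lower, against 6.23% and 7.33% of all genes. Atp5h (ENSMUSG00000034566, chr11:115415689-115419962, minus strand, GRCm38) has 4 annotated pseudogene copies of at least 95% identity over 200 bases, with which reads can be shared, so its value is uncertain. Ndufb9 (ENSMUSG00000022354, chr15:58933756-58939488, plus strand, GRCm38) overlaps the annotated gene Gm49356 on the same strand, and reads in the overlap can go to either or neither. In all, 19 of the 72 genes have such a pseudogene copy. Their median was 0.08 in 16N-plus cells and 0.26 in 8N cells, against 0.12 and 0.26 for the 53 without.

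The genotype effect differed between gates for 1 subunit gene, Atp5e. Its log2 fold change, in the authors' deposited table, was at -0.99 (SE 0.29) in 16N-plus cells and 0.54 (SE 0.25) in 8N cells. The difference was -1.53 (SE 0.39, adjusted p = 0.0149 from a normal approximation on the authors' edgeR values over 9305 genes). That was 1 of 72, lower, beside 0.731% of all genes, 0.172% higher and 0.559% lower. Atp5e (ENSMUSG00000016252, chr2:174461072-174464105, minus strand, GRCm38) lies 3189 bases from Tubb1, the platelet beta tubulin gene on the opposite strand. Tubb1, in the authors' deposited table, was at -3.32 (SE 0.26) in 16N-plus cells and -2.58 (SE 0.24) in 8N cells. Its difference between gates was -0.74 (SE 0.35), not called by the same approximation. Between ploidies in control cells, 16N-plus over 8N, Tubb1 was at 2.26 (SE 0.24) and Atp5e at 0.75 (SE 0.29), by the authors' deposited table. In knockout cells Tubb1 was at 1.52 (SE 0.24) and Atp5e at -0.78 (SE 0.25), by the authors' deposited table. Whether strand was used in counting is not given in the sources used here, and a part of Tubb1 reads in the Atp5e value was not tested. At an unadjusted p under 0.05, 9 subunit genes had a lower genotype effect in 16N-plus than in 8N cells and 0 a higher one, against 4.07% and 3.77% of all genes. Next to Atp5e in size came Cox7b, a small subunit of complex IV, with a difference of -1.11 (SE 0.39, adjusted p = 0.214 by that approximation from the authors' edgeR values), named after its value was seen.

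How a subunit gene differed between gates went with the length of its transcript and with its expression level. Subunit transcripts are short: their lengths ran from 371 to 4715 bases with a median of 849.5, against a median of 3161 over all genes. Across the 72 genes the Spearman correlation of length with the genotype effect was 0.33 in 16N-plus cells and -0.50 in 8N cells, against -0.04 and -0.18 across 9303 genes. Genes are not independent replicates, all share the same libraries, and length went with mean log2 CPM among the subunit genes (Spearman 0.60). With mean log2 CPM in place of length the correlation was 0.45 in 16N-plus cells, -0.14 in 8N cells and 0.43 for the difference between gates, so length and level were not separated. For 34 genes under 800 bases the median was 0.01 in 16N-plus cells and 0.43 in 8N cells, where all 34 were above 0. For all 305 genes of that length the medians were 0.06 and 0.15, and 237 were above 0 in 8N cells. For 20 subunit genes of 800 to 1500 bases the median was 0.16 and 0.24, against 0.08 and 0.09 for all genes of that length. For 18 subunit genes of 1500 bases and above it was 0.32 and 0.02, against 0.07 and -0.0046. The difference between gates correlated with length at 0.55, and had medians of -0.30, -0.07 and 0.22 in the 3 length classes, against -0.11, 0.01 and 0.06 for all genes of those lengths. Among the 50 genes with a mean log2 CPM of at least 5.5 the correlations were 0.31 in 16N-plus cells, -0.63 in 8N cells and 0.62 for the difference, and with level 0.42, -0.34 and 0.52. The length pattern has no check by library here.

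**Figure D2:**
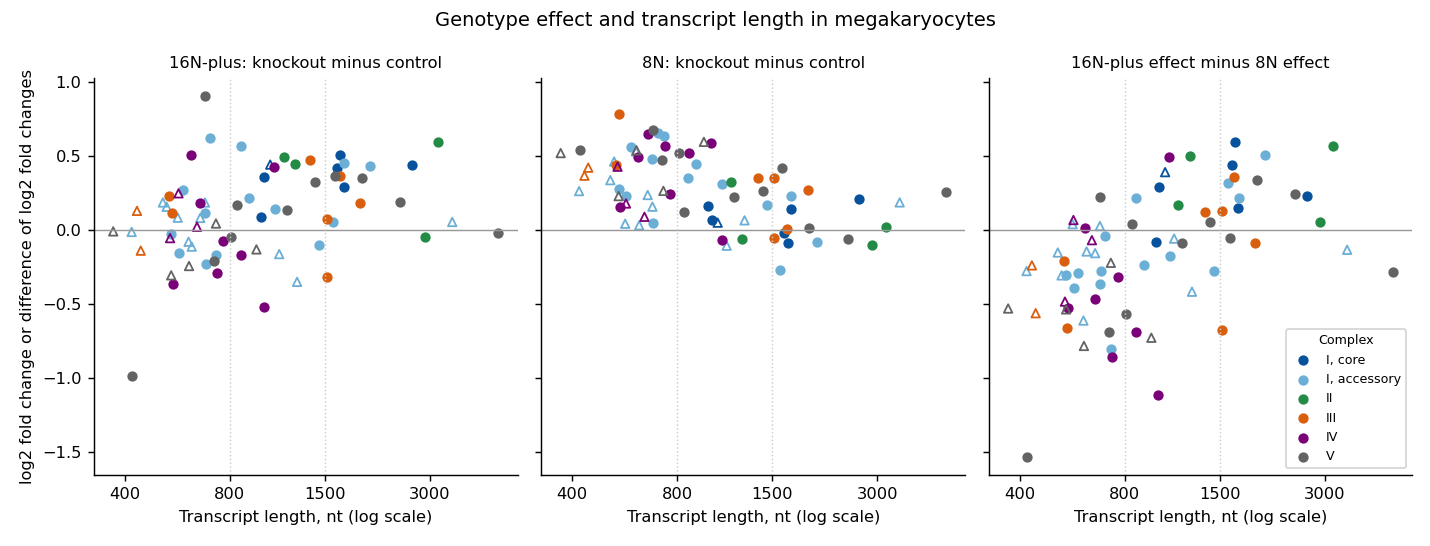
The x axis is transcript length in bases (log scale, dotted lines at 800 and 1500); the y axis is the log2 fold change, knockout over control, in 16N-plus cells (left) and 8N cells (middle), and the first minus the second (right). Each symbol is 1 subunit gene coloured by complex, open triangles being genes under a mean log2 CPM of 5.5; the cloud falls with length in 8N cells (Spearman -0.50) and climbs in the difference (0.55).

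Between ploidies within a genotype, the nuclear subunit genes and the mitochondrially encoded genes of the same complexes went apart. These ploidy tables use the same libraries as the genotype tables and are no separate evidence. In knockout cells 3 of 72 subunit genes were lower in 16N-plus than in 8N cells and 0 higher, beside 3.31% of all genes called, 2.1% higher and 1.21% lower. They were Atp5j2, a membrane subunit of complex V, at -0.75 (edgeR adjusted p = 0.00449), Cox7a2 at -0.77 (SE 0.22, edgeR adjusted p = 0.0187) and Ndufa4 at -0.74 (edgeR adjusted p = 0.00878), by the authors' deposited table. The median was -0.20, against -0.05 over all genes, and 17 of 72 were above 0, against 42.6%. At an unadjusted p under 0.05, 16 were lower and 0 higher, against 7.03% and 6.53% of all genes. In control cells 0 of 72 were called by edgeR, where 7.25% of all genes were, 4.74% higher and 2.51% lower. At an unadjusted p under 0.05, 2 were higher and 1 lower there, against 7.9% and 9.91%. The control median was -0.06, against -0.11 over all genes, which puts it at 0.05 after centring on all genes, with 26 of 72 above 0, against 36.2%.

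By contrast all 7 mitochondrially encoded genes in the tables were called higher at higher ploidy, with a median of 1.59 in knockout cells and 2.56 in control cells. mt-Cytb, the cytochrome b of complex III, was at 1.86 (SE 0.20) in knockout and 2.82 (SE 0.22) in control cells by the authors' deposited table. mt-Nd5, of complex I, was at 2.15 (SE 0.16) in knockout and 2.61 (SE 0.18) in control cells, by the authors' deposited table. The genotype effect on each of the 7 was lower in 16N-plus than in 8N cells (median difference -0.92), and 1 passed, mt-Nd1 (-1.50, SE 0.40, adjusted p = 0.0250 by the same approximation from the authors' edgeR values). Its genotype effect was called in 8N cells, at 1.38 (SE 0.29) by the authors' deposited table, and not in 16N-plus cells. In 16N-plus cells mt-Co1, of complex IV, was the 1 of 7 called, at -0.63 (SE 0.12) by the authors' deposited table. Macrophage markers moved with ploidy too: 7 of 17 monocyte and macrophage markers were called lower in knockout 16N-plus cells and 11 in control ones, with medians of -0.63 and -1.14. Neutrophil and granulocyte markers were lower for 0 of 15 in knockout and 6 of 15 in control cells. Megakaryocyte and platelet markers were higher for 9 of 15 in knockout and 13 of 15 in control cells. Cytosolic ribosomal protein genes were lower for 19 of 77 in knockout and 3 of 77 in control cells. In knockout cells 3 of 5 B cell and plasma cell markers were higher and 2 of 6 T and NK cell markers lower, against 0 of each in control cells. The part of these in the subunit values was not tested.

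**Figure D3:**
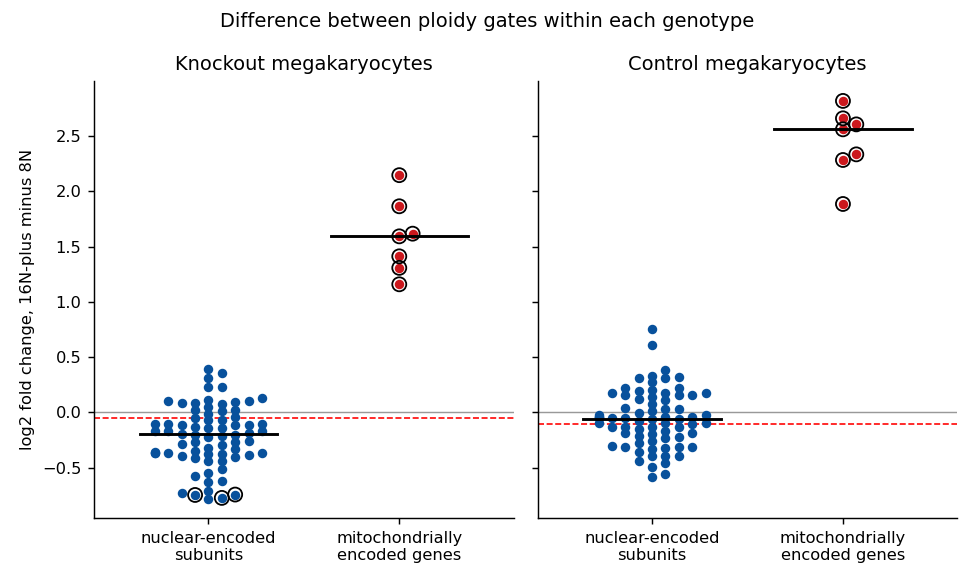
The y axis is the deposited log2 fold change, 16N-plus over 8N, in knockout (left) and control (right) megakaryocytes, for 72 nuclear-encoded subunit genes and 7 mitochondrially encoded genes; black bars are medians, circles mark called genes and the dashed line is the median of all genes. The 7 mitochondrially encoded genes lie above every nuclear subunit in both genotypes, at 1.16 and above in knockout cells and 1.89 and above in control cells.

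In platelets the subunit genes were broadly and strongly higher: 56 of 70 with an adjusted p were called higher in the knockout and 3 lower. This stands beside 53.2% of 12611 genes called, 28.2% higher and 25% lower. The median log2 fold change was 1.92, against 0.02 over all genes tested, and 62 of 70 were above 0, against 50.5%. The largest were Ndufv1, which accepts electrons from NADH, at 4.80 (SE 0.35, DESeq2 adjusted p = 1.97e-42), and the accessory subunits Ndufa8 at 4.40 (SE 0.23), Ndufc1 at 4.19 (SE 0.22) and Ndufb5 at 4.08 (SE 0.27), by the authors' deposited table. For Ndufv1 that is a 27.8-fold difference. Which of the wild type and Cre-negative samples served as controls is not given in the sources used here.

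By complex, the 7 core subunits of complex I were all higher, at a median of 1.90. Among those below Ndufv1 were, in the authors' deposited table, Ndufs8 at 3.24 (SE 0.20), Ndufs3 at 1.90 (SE 0.26), Ndufs7 at 1.79 (SE 0.18), Ndufs1 at 1.65 (SE 0.26) and Ndufv2 at 1.62 (SE 0.18). Of 25 accessory subunits 21 were higher and 3 lower, at a median of 2.46. All 4 genes of complex II were higher: Sdhb at 2.48 (SE 0.20), Sdha at 2.22 (SE 0.18), Sdhd at 1.68 (SE 0.19) and Sdhc at 1.44 (SE 0.16), as the authors' deposited table lists them. In complex III 7 of 9 were higher (median 2.01), led by the core protein gene Uqcrc1 at 3.59 (SE 0.28), the Rieske protein gene Uqcrfs1 at 3.38 (SE 0.29) and the cytochrome gene Cyc1 at 3.32 (SE 0.25), by the authors' deposited table. In complex V 11 of 12 were higher (median 2.16), led by genes of its catalytic head and stalks: Atp5d at 3.58 (SE 0.19), Atp5c1 at 3.42 (SE 0.16) and Atp5o at 3.32 (SE 0.23), by the authors' deposited table. The 1 that did not pass was Atp5sl, at 0.40 (SE 0.57) in the authors' deposited table. Atp5e, lower in knockout 16N-plus megakaryocytes, was at 1.35 (SE 0.44, DESeq2 adjusted p = 0.00460) in platelets by the authors' deposited table.

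Complex IV stood lowest, with 6 of 13 higher, 0 lower and a median of 0.26. That median is the value of Cox6c (SE 0.72, by the authors' deposited table), on a mean normalised count of only 4.51. Cox6c was named after its value was seen. The count of 0 lower leaves out Ndufa4, which was called lower and stands with complex I here by name. Cox7a1, the heart and muscle isoform, was at 2.58 (SE 0.67) by the authors' deposited table, on a mean normalised count of only 5.29. The general isoforms Cox4i1, at 1.67 (SE 0.21), and Cox6a1, at 1.29 (SE 0.14), were higher by the authors' deposited table. Cox7a2 at 0.06 (SE 0.24), Cox6b1 at -0.43 (SE 0.28) and Cox8a at -0.14 (SE 0.39) did not pass, as the authors' deposited table lists them. Isoforms known from muscle or testis had SEs too wide to place them: Cox6a2 at -0.61 (SE 1.16), Cox6b2 at -0.43 (SE 0.88) and Cox8b at -0.67 (SE 1.52) in the authors' deposited table. Their mean normalised counts were 1.34, 1009 and 0.768. Cox4i2 and Cox8c had no adjusted p, and Cox7b2 and Ndufa4l2 were listed at 0. Of the c-ring genes of complex V, Atp5g3 was at 0.44 (SE 0.17, DESeq2 adjusted p = 0.0183) in platelets by the authors' deposited table. In megakaryocytes Atp5g1, Atp5g2 and Atp5g3, in the authors' deposited table, were at -0.02, 0.05 and -0.21 in 16N-plus cells and 0.26, 0.27 and 0.48 in 8N cells, none called.

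The 3 subunit genes that were lower in knockout platelets all have Nduf names and were abundant. Ndufs4, an accessory subunit of the electron-input arm of complex I, was at -1.39 (SE 0.29, DESeq2 adjusted p = 4.49e-06), by the authors' deposited table, on a mean normalised count of 1048. Ndufa4 was at -1.09 (SE 0.25, DESeq2 adjusted p = 3.81e-05) and Ndufa1, a small membrane subunit of complex I, at -1.0 (SE 0.36, DESeq2 adjusted p = 0.0120), by the authors' deposited table, on means of 5200 and 5773. All 3 were thus lower in the same libraries in which 21 other genes grouped by name as accessory subunits were higher. Ndufa2, in complex I, was at 0.15 (SE 0.25) and in complex III Uqcr11 at 0.36 (SE 0.30) and Uqcrq at 0.39 (SE 0.40), none of them called, as the authors' deposited table lists them; Uqcrq was chosen after its value was seen. In megakaryocytes Ndufs4 was at 0.45 (SE 0.33) in 16N-plus and 0.23 (SE 0.24) in 8N cells, Ndufa4 at -0.08 and 0.53, and Ndufa1 at -0.01 and 0.26, none called, by the authors' deposited table.

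**Figure D4:**
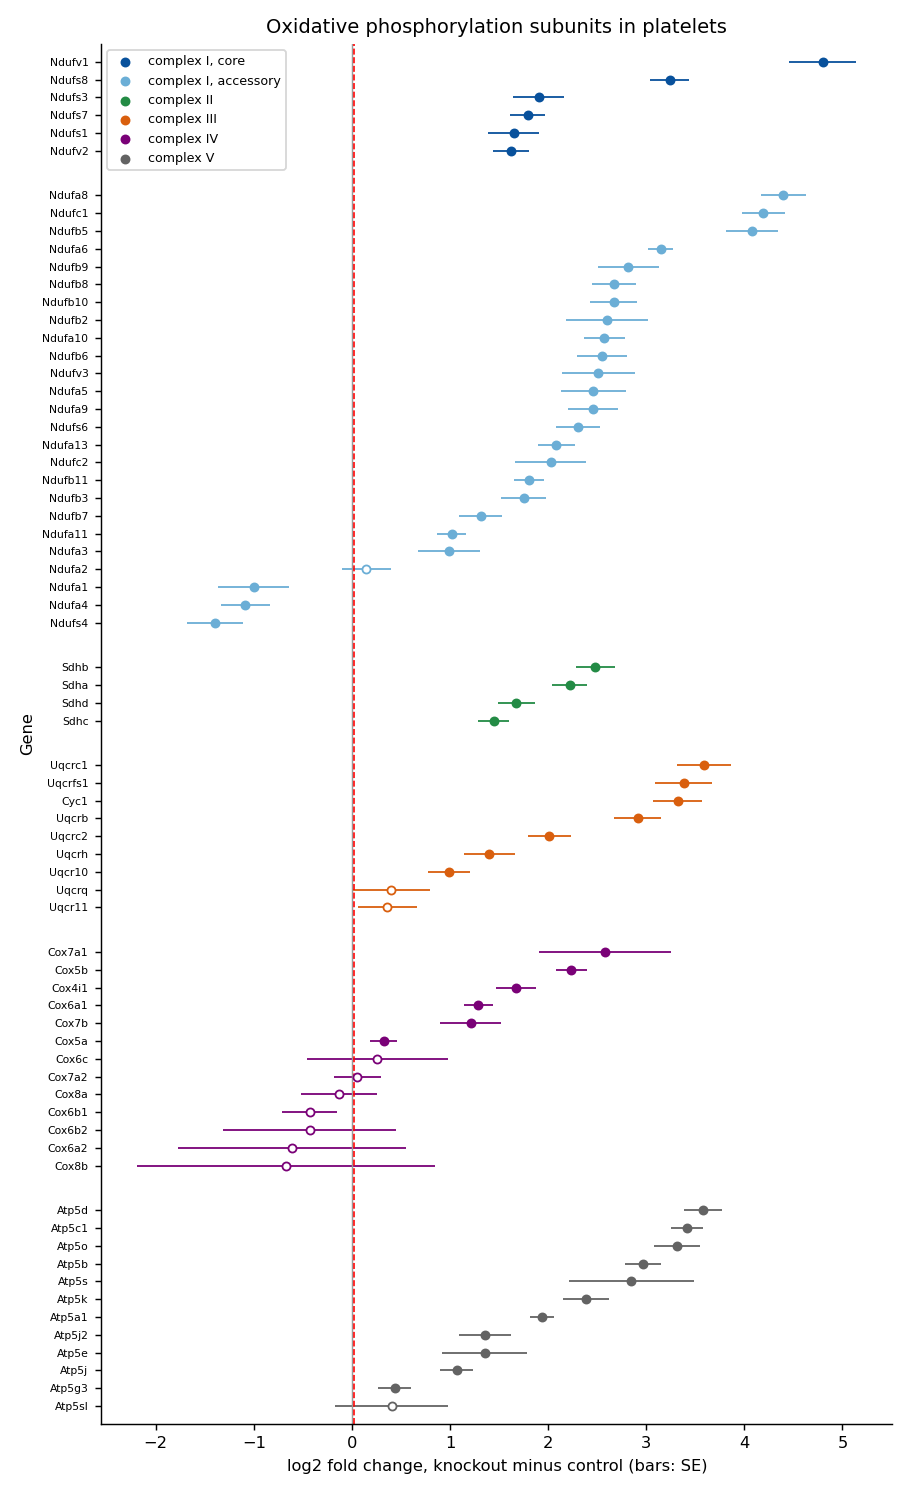
Each row is 1 of 69 of the 70 subunit genes with an adjusted p, ordered by complex and value; the x axis is the deposited log2 fold change, knockout over control platelets, with bars of 1 SE, filled points called and open points not called, and a dashed line at the median of all genes. Most points lie between 1 and 4.80, complex IV has 7 open points and the lowest median, 0.26, and Ndufs4, Ndufa4 and Ndufa1 lie at -1.0 and below.

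Abundance and transcript length both went with the platelet values. Of 5 subunit genes tested with mean normalised counts under 10, 2 were higher. The median of this class, 0.05, also takes in genes without an adjusted p and is the value of Cox4i2, which has none. Of 7 with means of 10 to 100, 5 were higher, with a median of 2.03. Of 36 with means of 100 to 1000, 35 were higher and 0 lower, with a median of 2.47. Of 22 with means of 1000 and above, 14 were higher and 3 lower, with a median of 1.10, so the values were lowest at both ends of the range. The Spearman correlation of the log2 fold change with the mean count was -0.37 over 69 genes, against -0.08 over 11317 genes. Its correlation with transcript length was 0.42, against -0.16 over those genes. Length here is that of the annotated transcript, while platelet libraries were amplicon panels. These correlations are therefore not comparable with those in the total RNA libraries of megakaryocytes. For 32 genes under 800 bases the median was 1.15, against 0.46 for all genes of that length, and for 17 genes of 1500 bases and above it was 2.51, against -0.02.

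Most other mitochondrial lists were also higher in knockout platelets. Of 16 genes of the tricarboxylic acid cycle 13 were called higher and 1 lower (median 2.49), with the isocitrate dehydrogenase gene Idh3b at 3.11 (SE 0.34) and citrate synthase, Cs, at 2.83 (SE 0.32) by the authors' deposited table. Of 69 mitochondrial ribosomal protein genes 47 were higher and 4 lower (median 1.74). Of 21 import genes 16 were higher and 1 lower (median 1.91), led by Grpel1, a co-chaperone of import, at 5.17 (SE 0.33) by the authors' deposited table. Of assembly factors, 9 of 14 for complex I were higher and 3 lower (median 1.61), and 16 of 30 for complexes II to V were higher and 8 lower (median 1.19), where 25% of all genes were lower. Of 13 electron carrier and coenzyme Q genes 8 were higher and 2 lower (median 1.85), with Coq4 at 5.24 (SE 0.64) and Pdss1, which makes the coenzyme Q tail, at -2.79 (SE 0.30) by the authors' deposited table. Of 9 antioxidant and nucleotide carrier genes 7 were higher and 1 lower (median 1.35). Regulators of mitochondrial biogenesis did not share the direction: of 15, 2 were higher and 5 lower (median -0.33). Among them Tfam, which packages mitochondrial DNA, was at -1.60 (SE 0.32) and Gabpb1, a partner in the GABP factor, at -0.96 (SE 0.16), by the authors' deposited table. Of 18 glycolysis genes 11 were higher and 1 lower (median 0.76), the lower one being the glucose transporter gene Slc2a3 at -4.22 (SE 0.19) by the authors' deposited table.

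Red cell markers moved in the same platelet libraries. Of 18, 16 were called higher and 0 lower, with a median of 5.91 and mean normalised counts of 1.75 for Klf1 to 66052 for Alas2; none was at 0. Alas2, the first heme enzyme of red cells, was at 6.57 (SE 0.96) and the anion exchanger gene Slc4a1 at 6.49 (SE 0.91) by the authors' deposited table. Of 15 cytosolic ribosomal protein genes 13 were higher and 0 lower (median 2.76). Megakaryocyte and platelet markers went the other way, with 0 of 14 higher and 11 lower (median -1.40), and Tubb1, in the authors' deposited table, at -5.59 (SE 0.23). Of leukocyte markers, 0 of 11 neutrophil, 1 of 15 monocyte, 0 of 7 B cell and 0 of 10 T and NK cell markers were called higher, and 0, 3, 2 and 1 lower. The part of red cell RNA in the subunit values was not tested. In megakaryocytes 0 of 19 red cell markers were called higher in either gate, with 1 lower in 16N-plus and 2 lower in 8N cells.

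**Figure D5:**
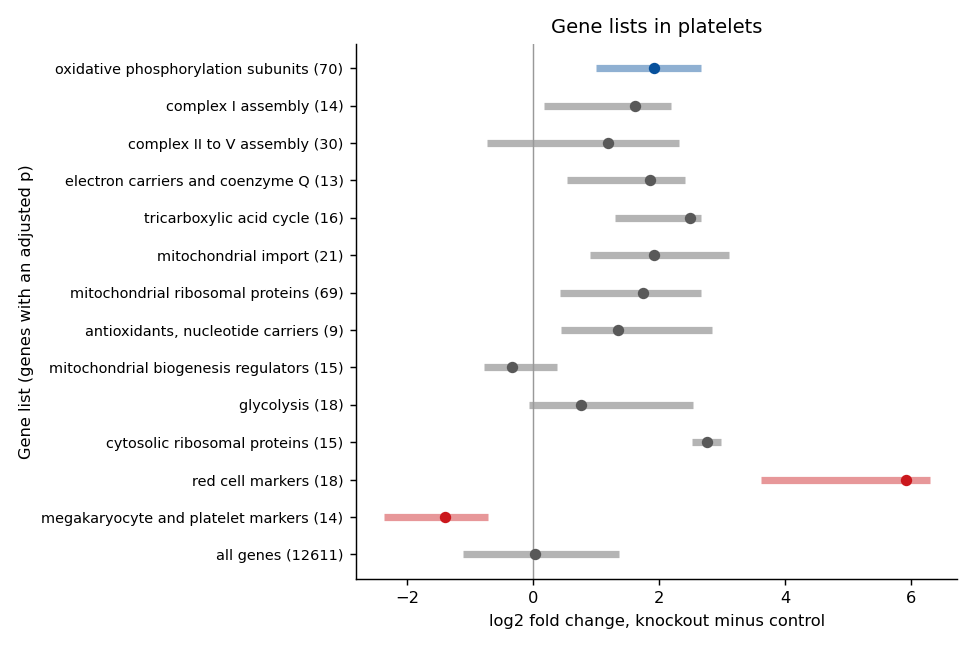
Points are median deposited log2 fold changes, knockout over control platelets, with bars over the interquartile range of each list; the number of genes with an adjusted p follows each name. The subunit genes (1.92) lie with the other mitochondrial lists at 1.19 to 2.49, away from biogenesis regulators (-0.33), between megakaryocyte and platelet markers (-1.40) and red cell markers (5.91).

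Set beside each other, platelets and megakaryocytes differed in their subunit patterns. Of the 60 genes with both values, 36 were above 0 in knockout platelets and knockout 16N-plus megakaryocytes, 19 were above 0 in platelets and below 0 in megakaryocytes, 2 the other way, and 3 below 0 in both. For 8N cells these counts were 47, 8, 5 and 0. The platelet effect had a Spearman correlation across genes of 0.36 with the 16N-plus effect and -0.29 with the 8N effect. The platelet orientation was itself set from the relation with the megakaryocyte tables over all genes, so the sign of these values is no separate evidence. The platelet median of 1.92 is a 3.78-fold difference, while in 16N-plus megakaryocytes the subunit gene farthest from 0 was Atp5e at -0.99 by the authors' deposited table. These sizes are not on 1 scale, since platelet libraries were amplicon panels and megakaryocyte libraries total RNA. All genes were spread more widely in platelets too, with quartiles of -1.12 and 1.36, against -0.12 and 0.25 in 16N-plus cells.

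Among the other lists in megakaryocytes few genes passed. The 7 lists of assembly factors, coenzyme Q, the tricarboxylic acid cycle, import, antioxidant and carrier genes and mitochondrial ribosomal proteins, 166 genes in all, had 0 called by edgeR for genotype in either gate. Of all genes 3.51% were called in 16N-plus and 1.44% in 8N cells. At an unadjusted p under 0.05, 7 of the 166 were higher and 0 lower in 16N-plus cells, against 5.54% and 6.5% of all genes. For 8N cells these counts were 5 and 0, against 3.21% and 4.94%. Slc2a3 was the 1 glycolysis gene called, at -2.21 (SE 0.29) in 16N-plus and -1.24 (SE 0.25) in 8N cells, by the authors' deposited table. Of 17 biogenesis regulators 0 were called by edgeR in either gate, 2 at an unadjusted p in each, and Polg2, a subunit of the mitochondrial DNA polymerase, was called over both gates together at 0.43 (SE 0.13, edgeR adjusted p = 0.0413) by the authors' deposited table. The regulator gene Yy1 was at 0.83 (SE 0.31, edgeR adjusted p = 0.136) in 16N-plus cells by the authors' deposited table.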

How the data were processed

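Megakaryocyte samples (12) and platelet samples (10) were grouped by genotype and, for megakaryocytes, ploidy, per the labels. Per the labels' protocols, megakaryocyte RNA was made into stranded total RNA libraries and platelet RNA into amplicon panel libraries. The submitters' processing notes name Trimmomatic, STAR, Picard, Subread, featureCounts, edgeR, DESeq2 and the build mm10, without versions. The 5 megakaryocyte tables hold, per the file headers, the authors' edgeR log2 fold change, mean log2 CPM, F score and p-value with an adjusted p. No gene in them has a mean log2 CPM under 4.23, as after a filter on low expression. The platelet table holds, per the file headers, the authors' DESeq2 signal (a mean normalised count), log2 fold change with SE, test score and p-value; 12611 of its 23930 rows have an adjusted p, down to a mean count of 0.707. Values per library were not analysed here, and the deposited comparisons were used as they stand.

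Members were found by symbol, with 9300 of 9326 gene identifiers matched to the GRCm38 annotation. The members and all lists were chosen with earlier results of these data known. Medians are over genes with an adjusted p, except that of the lowest class of platelet counts, which takes in genes without one. The SE of a megakaryocyte value is its size over the root of F; implied SEs of tables sharing a group scattered by 0.36 (SD, log2) at means of 5 to 5.5 and 0.15 at 5.5 to 6, which set the limit for printing. The difference between gates was divided by the root of the summed squared SEs, read against a normal distribution and adjusted by Benjamini-Hochberg; it takes the gates as independent, and its code was checked only on data simulated under that same assumption. Transcript lengths and coordinates are from the annotation, and pseudogene copies from BLAST 2.17.0. Genes named are those called where 12 or fewer were; otherwise the 10 largest, the largest and smallest per complex and those against the majority; and core complex I, complex II, isoform families and the leading genes of other lists. Other genes are marked as chosen after their values were seen. The values of 1 member are not reported here. The stricter and unadjusted thresholds, a fold minimum, centring, expression limits, synonyms and other SEs for the difference between gates were tried as alternatives. Leaving out tissue-restricted isoforms and shared members, and readjusting platelet p-values over all rows, were tried too. Python 3.11.15, numpy 2.4.6, pandas 2.3.3, scipy 1.17.1 and matplotlib 3.10.9 were used.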

Additional observations from a re-analysis of the deposited data

Results flagged for a closer look

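The genotype effect on Atp5e differed between gates: its log2 fold change, knockout over control, in 16N-plus minus that in 8N megakaryocytes was -1.53 (SE 0.39, adjusted p = 0.0149 by a normal approximation on the authors' edgeR values). With SEs taken from the ploidy tables the adjusted p was 0.0125.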

How the results depend on the processing

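Of 69 alternatives 11 moved a count of called subunit genes in megakaryocytes by over 1.5 times. Some medians also moved by over 1.5 times. The 16N-plus genotype median of 0.12 was 0.04 after centring on all genes and 0.31 for subunit genes at or above the median expression of all genes. The control ploidy median of -0.06 was 0.05 and -0.14 in these settings, and the knockout one of -0.20 was -0.15 and -0.11. At an adjusted p under 0.01 the count was 0 in place of 2 in 16N-plus cells, 1 in place of 2 over both gates and 0 in place of 1 for the difference between gates. At an unadjusted p under 0.05 it was 5 in 16N-plus cells, 20 in 8N cells in place of 0, 10 over both gates, 9 for the difference, 16 in place of 3 for ploidy in knockout cells and 3 in place of 0 in control cells. With only subunit genes at or above the median expression of all genes, 0 were called for ploidy in knockout cells. With genes at a mean log2 CPM of 5.5 or above, chosen after seeing the data, 1 was called in 8N cells, and for ploidy in knockout cells Atp5e (adjusted p = 0.0446 from the authors' edgeR p) and Cox7a2. In these last settings fewer genes were tested; for the thresholds the construction itself changes the count. Platelet calls ran between 55 and 60, against 59 as reported. No paired analysis was possible because the tables used hold 1 value per gene and comparison and none per library, and leaving out each replicate was not run for the same reason. The depth behind each value is unknown.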
